A study of Mus musculus with 25 samples.

Results

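Ly6Clow macrophages sorted from injured muscle 4 days after injury were compared with those sorted at day 2, gene by gene. Of the 38087 genes in the authors' table, 11560 were compared: those whose higher group of the pair reached 50 normalised counts, a level chosen to keep counting error low. The other 26527 genes lay below it, and 18625 genes were listed at 0 at both days. The mice were male C57BL/6J animals aged 2 to 4 months whose tibialis anterior muscle had been injected with cardiotoxin, a venom toxin used to destroy fibres and start regeneration. CD45+ cells were isolated with magnetic beads and sorted by flow cytometry with antibodies to Ly6C, F4/80 and Ly6G. The Ly6Clow F4/80high gate gave 3 samples at day 2 and 2 at day 4, and the Ly6Chigh F4/80low gate, which supplied a second comparison of the same days, also gave 3 and 2. Neutrophils, taken through the Ly6Ghigh gate, were sampled at day 1 (3 samples). Every muscle group came from injured animals. Cultured bone marrow-derived macrophages (BMDM) from male C57BL/6J mice aged 8 to 10 weeks were grown in M-CSF, a macrophage growth factor, and rested without it. The comparison in BMDM was of 3 untreated libraries with 3 given 10 nM resolvin D2 (RvD2) for 4 h. RvD2 is a pro-resolving mediator that cells make from an omega-3 fatty acid. The labels number the samples of a group but do not say whether they came from separate animals or cultures, so a p-value measures only the spread between these libraries.

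After acute injury, Ly6Chigh monocytes enter muscle from the blood and engulf debris, and Ly6Clow F4/80high macrophages follow them, largely by conversion in place. The later cells are known for clearing apoptotic cells, for damping inflammation and for releasing factors that act on muscle stem cells and fibroblasts. Macrophages present peptides on MHC molecules, respond to interferons through dedicated transcription factors, and take up and export lipid and iron from the cells they eat.

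The muscle table holds 1 value per gene and group, the authors' mean of log2 normalised counts over the samples of that group. No error or test can therefore be attached to a difference between muscle groups, and whether it exceeds the spread between samples is unknown. Levels below are normalised counts, read back from that mean, and a fold or a log2 ratio was taken after adding 10 counts to both days, which understates differences at low levels. A gene was called higher or lower at day 4 when it differed at least 2-fold. Summed normalised counts were 12.6 M (M, mega) at day 2 and 12.8 M at day 4, and 11.9 to 26.0 M over the 5 muscle groups. Reads were estimated by assuming that the commonest low group means stood for 2 reads in 1 library and none in the others. In the Ly6Clow groups 1 read was then worth 0.736 to 0.916 normalised counts. By this estimate 50 counts in 1 library stood for 54.6 to 68.0 reads, with a counting error of 12.1% to 13.5%. In these bulk samples, fewer cells of a type and less RNA per cell cannot be told apart.

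The sort held at the level of RNA. Ly6c2, which encodes the Ly6C antigen, was at 139 normalised counts in Ly6Clow cells at day 2 and 93.5 at day 4, against 3717 and 11758 in Ly6Chigh cells and 1265 in neutrophils. Ly6c1, its close copy, was at 41.7 and 43.1 in Ly6Clow cells, against 985 and 3258 in Ly6Chigh cells. Emr1, the gene of F4/80, was at 14287 and 19571 in Ly6Clow cells and at 8642 and 14270 in Ly6Chigh cells. Ly6g was listed at 0 in the 4 macrophage groups and stood at 147 in neutrophils. Each pair of subsets thus differed in the direction of its gate at both days, which the sort itself fixes.

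Macrophage identity genes were high at both days, and markers of several other cell types were higher at day 4. Csf1r, the receptor for M-CSF, was at 14887 normalised counts at day 2 and 36676 at day 4, 2.46-fold higher. The complement gene C1qa was at 13310 and 37439, and Mertk, a receptor for apoptotic cells, at 1915 and 3828, just under 2-fold and not called. The summed level of the 10 identity genes went from 340023 to 430749. The 18 fibroblast genes summed to 164 normalised counts at day 2 and 3002 at day 4 (0.0235% of the total). The 11 of them that reached the level minimum did so through day 4 and were all called higher, a count that the filter nearly fixes and that supports nothing, against 8.08% of all compared genes. In Ly6Chigh cells at day 4 that sum was 34503, or 0.291% of the total. Skeletal muscle fibre genes summed to 937 and 2923, with 10 of the 13 genes at the minimum called higher, most of them through day 4 in the same way, and muscle stem cell and myoblast genes to 51.8 and 908. Dendritic cell genes summed to 4125 and 8099, and all 16 had a ratio above 0. Of 5 at the level minimum 3 were called higher (median log2 ratio 1.48), led by Dnase1l3 (4.18 and 611), while the defining genes Flt3 (7.46 and 24.8) and Zbtb46 (3.64 and 10.8) stayed below the minimum at both days. B cell genes summed to 2928 and 6305, with Cd79a and Pax5 listed at 0. T and NK cell genes summed to 1512 and 1053, with Cd3g and Cd8a listed at 0, though 11 of the 18 had a ratio above 0 and 5 below. Neutrophil genes summed to 2963 and 2728, against 431450 in the neutrophils, with Ly6g, Ngp, Camp and Stfa2l1 listed at 0 at both days. The summed values are drawn in the plot of marker lists by group.

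**Figure D1:**
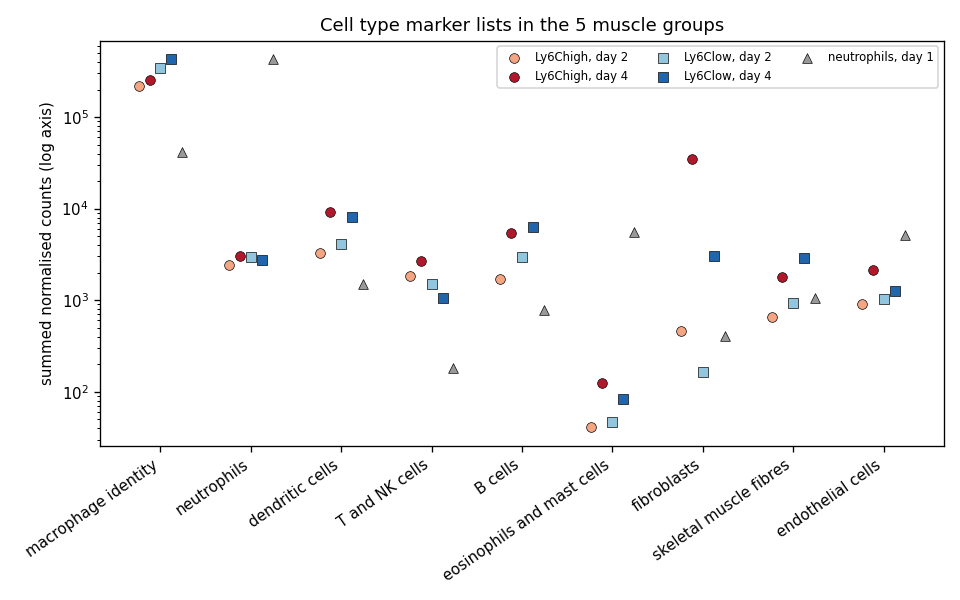
Summed normalised counts (log axis) of 9 lists of cell type markers in the 5 muscle groups; each point is the authors' mean for a group, with no error available. Fibroblast genes in Ly6Clow cells sit at 164 at day 2 and 3002 at day 4, below the 34503 of Ly6Chigh cells at day 4, and macrophage identity genes sit at 340023 and 430749.

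More genes were higher at day 4 than lower. Of 11560 genes, 934 (8.08%) were at least 2-fold higher and 375 (3.24%) at least 2-fold lower, while 71.7% lay within 1.5-fold. The median log2 ratio was -0.01, with quartiles of -0.34 and 0.35, a centre near 0 that the authors' scaling sets. A gene low at day 2 could reach the level minimum only through day 4 and was then nearly sure to be called, so counts of list members are descriptions, to be read against these 2 shares. Just inside and just outside the 2-fold limit were Gtf2ird2 (log2 ratio 1.00) and Ptplad2 (0.997) on the higher side. On the lower side they were Sh3bp5 (-1.0004) and Rexo2 (-0.9995), and at the level minimum 4930579G24Rik (50.02 counts) was compared and AL606528.1 (49.99) was not.

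The 12 genes with the largest ratios toward day 4 had varied roles. H19, an imprinted long non-coding RNA of fetal and regenerating tissue, was at 4.89 normalised counts at day 2 and 1450 at day 4 (98.1-fold). Ciita, the master activator of MHC class II genes, was at 13.6 and 1091 (46.7-fold). Dnase1l3, a secreted DNase of macrophages and dendritic cells that is on the dendritic cell list, was at 4.18 and 611 (43.8-fold). Lag3, a receptor for MHC class II, was at 7.99 and 658 (37.2-fold), and Cd4, its neighbour on chromosome 6, at 23.6 and 1223 (36.7-fold). The T cell receptor genes Cd3e (1.19 and 0), Cd3d (0 and 1.55) and Cd3g (0 at both days) stayed near 0. Of all 18 T and NK cell genes, however, 11 had a ratio above 0 and 5 below, and 1 reached the level minimum. The part of T cell RNA in the Cd4 and Lag3 values was not tested. Serpina3g, a protease inhibitor, was 28.1-fold higher, Ifi44, an interferon-induced gene, 24.0-fold and the Toll-like receptor gene Tlr12 23.4-fold. Fam26f (22.6-fold), Cxcl9 (21.3-fold), Tmem176a (20.8-fold) and Vipr1 (20.6-fold) completed the 12 leading genes. All 12 were also called higher at day 4 in Ly6Chigh cells.

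The 12 genes with the largest ratios toward day 2 were led by Arg1 and Fn1. Arg1, the arginase of alternatively activated macrophages, was at 5246 normalised counts at day 2 and 299 at day 4, 17.0-fold lower. Fn1, which encodes fibronectin, was at 36449 and 3736 (9.73-fold lower). Ppbp, a chemokine gene of platelets and monocytes, was at 246 and 19.4 (8.70-fold lower). Hp (haptoglobin) was 6.12-fold lower, Mmp8, a neutrophil collagenase, 5.16-fold, Slpi 4.97-fold, Cgnl1 4.94-fold, Chi3l3, a chitinase-like protein of monocytes and macrophages, 4.90-fold and the Notch ligand Jag1 4.87-fold. The other leading genes were AC165433.1 (log2 ratio -2.93), AC137938.1 (-2.63) and Gm15821 (-2.55). Of these 12 genes 9 were also called lower at day 4 in Ly6Chigh cells, and AC165433.1, AC137938.1 and Gm15821 were not. Counting was not stated to use strand, so reads of antisense and overlapping genes such as AC137938.1 cannot be told apart from those of their partners.

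**Figure D2:**
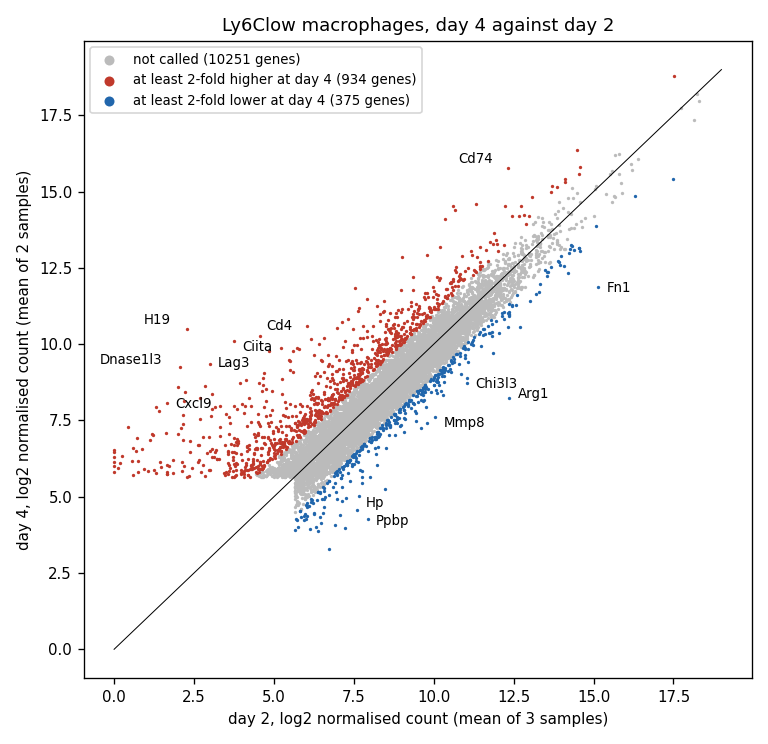
Levels of the 11560 genes in Ly6Clow macrophages, as authors' group means of log2 normalised counts at day 2 (horizontal) and day 4 (vertical); the line marks equal levels. The 934 genes called higher lie above it, with H19 and Dnase1l3 farthest from it among the named genes. The 375 called lower lie below it, with Arg1 and Fn1 named.

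Genes of MHC class II presentation were higher at day 4 as a group. Of 12 listed genes 9 reached the level minimum, and 8 of these were called higher and 0 lower, against 8.08% of all compared genes called higher. Their median log2 ratio was 3.44 against -0.01 over all compared genes. Ciita (day 2 log2 mean 3.76) reached the minimum only through day 4. H2-Aa, a class II chain, stood at 1542 normalised counts at day 2 and 23426 at day 4 in Ly6Clow cells, at 9204 and 67775 in Ly6Chigh cells, and at 2233 in neutrophils. Cd74, the invariant chain that escorts class II molecules, stood at 5169 and 56077 in Ly6Clow cells, at 26286 and 144409 in Ly6Chigh cells, and at 3955 in neutrophils. For both genes Ly6Clow cells at day 2 were the lowest of the macrophage groups and Ly6Chigh cells at day 4 the highest. The peptide loading genes H2-DMa (4.20-fold) and H2-DMb1 (log2 ratio 2.13) were higher by less than the chains they load. Ctss, the protease that trims the invariant chain, was under 2-fold (log2 ratio 0.45), and H2-Ob stayed below the level minimum (6.25 and 41.9). Dendritic and B cells also express class II genes, and the summed levels of their markers given above were higher at day 4. Their part in the class II values was not tested.

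MHC class I genes differed less. Of 19 listed genes 10 were called higher and 0 lower (median log2 ratio 1.04). B2m, the light chain shared by class I molecules, was at 17794 normalised counts at day 2 and 40790 at day 4 (2.29-fold), and H2-K1 at 8630 and 28917 (log2 ratio 1.74). The peptide transporter gene Tap1 was 2.59-fold higher and Nlrc5, the activator of class I genes, had a log2 ratio of 1.47. The immunoproteasome genes Psmb8 (0.31) and Psmb10 (0.32) were under 2-fold. Class I genes such as H2-Q4, H2-Q6 and H2-Q7 are near-identical copies among which reads could be split, and their separate values are uncertain.

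Most compared members of the interferon lists were called higher. Of 30 type I interferon response genes 26 were called higher and 0 lower (median log2 ratio 1.66). Of 22 interferon-gamma-induced GTPases and related genes at the level minimum 20 were called higher and 0 lower (median 2.68), with Cxcl10 counted in both lists. The share called higher of all compared genes was 8.08%. Members such as Cxcl9 (day 2 log2 mean 1.65) reached the minimum only through day 4 and were then nearly sure to be called. Several genes of the 2 lists hold the interferon-stimulated response element, GAAANNGAAA, near their start. The promoters of Cxcl10, Gbp2 and Ifit3 are printed because their genes are followed through the results. Each window runs from 250 bases before to 50 bases after the start on GRCm38.p6 (RefSeq), 5′ to 3′ on the strand of the gene, with matches on either strand in capitals.
Cxcl10, chr5:92348840-92349139, minus strand: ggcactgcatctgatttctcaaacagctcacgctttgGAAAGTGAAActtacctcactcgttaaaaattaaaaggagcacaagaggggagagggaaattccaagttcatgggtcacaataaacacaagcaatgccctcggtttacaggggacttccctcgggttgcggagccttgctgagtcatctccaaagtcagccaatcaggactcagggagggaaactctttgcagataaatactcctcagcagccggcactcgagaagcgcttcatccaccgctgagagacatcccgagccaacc
Gbp2, chr3:142620413-142620712, plus strand: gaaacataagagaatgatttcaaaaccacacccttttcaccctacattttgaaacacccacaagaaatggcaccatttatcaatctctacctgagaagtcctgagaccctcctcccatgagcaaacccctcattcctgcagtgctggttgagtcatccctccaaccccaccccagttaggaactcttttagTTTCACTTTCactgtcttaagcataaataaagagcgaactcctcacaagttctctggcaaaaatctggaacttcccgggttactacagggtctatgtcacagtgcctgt
Ifit3, chr19:34583279-34583578, plus strand: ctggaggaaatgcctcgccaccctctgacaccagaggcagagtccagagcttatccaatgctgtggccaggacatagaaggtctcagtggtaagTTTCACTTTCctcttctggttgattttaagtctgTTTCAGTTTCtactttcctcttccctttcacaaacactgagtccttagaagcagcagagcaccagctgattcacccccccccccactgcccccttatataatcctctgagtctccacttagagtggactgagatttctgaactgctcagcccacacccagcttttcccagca
Counted from the start site, the element begins at base -213 in Cxcl10 and at base -59 in Gbp2, and Ifit3 holds 2 matches. Of all 32851 promoter windows available, 3.44% hold it. Only 38 of the 51 genes of the 2 interferon lists had a window (74.5%), under the 80% needed, so no share is given for the lists. A match is a description of letters in this window and not evidence of binding.

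Members of the interferon lists that carry out different roles differed in size. Cxcl10, a chemokine for activated T cells, stood at 71.1 normalised counts at day 2 and 1153 at day 4 in Ly6Clow cells, 382 and 1350 in Ly6Chigh cells, and 973 in neutrophils. Gbp2, a guanylate-binding protein that attacks vacuoles of pathogens, stood at 125 and 1493 in Ly6Clow cells, 331 and 1699 in Ly6Chigh cells, and 800 in neutrophils. Ifit3, an antiviral RNA-binding protein, stood at 318 and 2047, 684 and 2579, and 1740 in the same order. In each of these 3 genes Ly6Clow cells at day 2 were the lowest of the 5 groups, and the 2 subsets were closer at day 4 than at day 2. Among sensors and transducers, Irf7 was at 1169 and 9264 (7.87-fold) and Irf1 at 457 and 1878 (4.04-fold), and the interferon-gamma receptor gene Ifngr1 was 2.28-fold higher. The receptor genes Ifnar1 (log2 ratio -0.22), Ifnar2 (0.49) and Ifngr2 (0.67) were under 2-fold. Ifng itself was listed at 0 in Ly6Clow cells at both days, and stood at 1.06 and 29.1 in Ly6Chigh cells. The 4 type I list members that were not called, Oas1a (0.88), Bst2 (0.83), Irf9 (0.67) and Ifitm3 (0.54), all had positive log2 ratios.

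A set of interferon-inducible families chosen after the values were seen gave the same picture and adds no independent support. Of 15 PYHIN and SLFN genes, which include sensors of DNA in the cytoplasm, 12 were called higher and 0 lower (median log2 ratio 1.64). Pydc4 was at 75.6 normalised counts at day 2 and 800 at day 4, Ifi203 at 317 and 1747, and Aim2, the DNA sensor of an inflammasome, at 206 and 465. Family members with near-identical copies, among them Tgtp1 and Tgtp2 in the gamma list, can share reads.

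**Figure D3:**
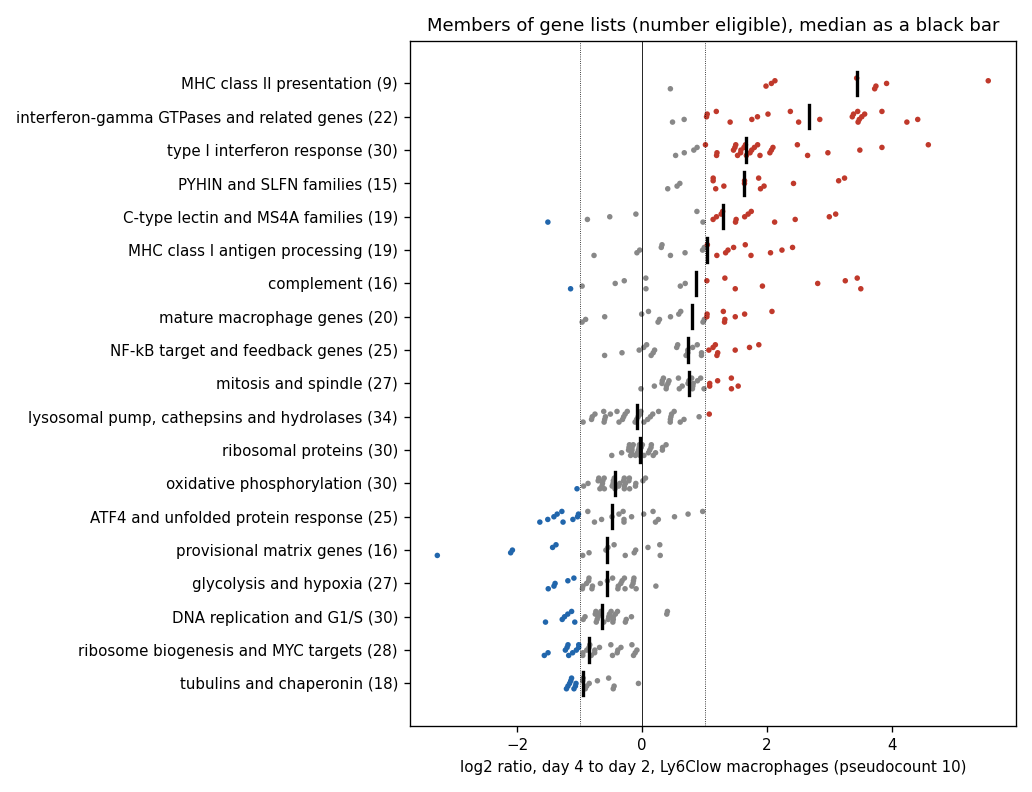
Log2 ratio of day 4 to day 2 in Ly6Clow macrophages (horizontal, from the authors' group means) for each compared member of 19 gene lists, with red points called higher, blue points called lower and a black bar at the median. Class II genes sit farthest to the right, with a median of 3.44, and the tubulin and chaperonin list farthest to the left, with a median of -0.95.

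Called genes lay next to each other on the chromosomes more often than other genes. Of 927 genes called higher and placed on mm10, 353 (38.1%) had a neighbour among the compared genes that was also called higher, against 12.8% of genes not called. On the lower side 51 of 372 genes (13.7%) had such a neighbour, against 6.14% of genes not called. There were 39 runs of 3 or more adjacent genes called higher and 4 called lower. The longest held 14 genes of the MHC class I region from H2-T24 at chr17:36005695-36168537. Other runs held 9 Trim genes at chr7:104244457-104507849 and 6 PYHIN genes from Aim2 to Pydc3 at chr1:173350879-173698395. The run of H2-DMa, H2-DMb2, H2-DMb1, Psmb9 and Tap1 lay at chr17:34119541-34197225, and Leprel2, Gpr162, Cd4, Lag3 and Ptms were adjacent at chr6:124841089-124920103. The 4 lower runs were S100a4 to S100a9, Tuba1a to Tuba1c, Mcf2l with F7 and F10, and Hmox1 with Mcm5 and Gm7984. Families of similar genes sit in many of these runs, and shared or overlapping reads in them were not separated.

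Of 16 complement genes 8 were called higher and 1 lower (median log2 ratio 0.86), with Itgam (-0.96), Itgb2 (-0.43) and Cfp (-0.29) also below 0. C4b was at 94.5 normalised counts at day 2 and 1175 at day 4, Cfb at 158 and 1819, and C2 at 48.2 and 545 (9.54-fold), so components of both convertase pathways were higher. C3 was at 588 and 2263 in Ly6Clow cells, 4710 and 5032 in Ly6Chigh cells, and 38804 in neutrophils. It was 3.80-fold higher in Ly6Clow cells and nearly level in Ly6Chigh cells, which started higher. C5ar1, the receptor for the C5a fragment, had a log2 ratio of -1.15.

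Pattern receptors of the C-type lectin and MS4A families were mostly higher, with 13 of 19 called higher and 1 lower (median log2 ratio 1.29). Clec7a, the receptor for fungal beta-glucan known as dectin-1, was at 893 normalised counts at day 2 and 7736 at day 4. Clec4n (dectin-2) was at 298 and 2453 in Ly6Clow cells, 1943 and 1409 in Ly6Chigh cells, and 28283 in neutrophils. Its day 4 level in Ly6Clow cells was 7.99-fold above day 2 while the Ly6Chigh groups differed the other way by less than 2-fold (log2 ratio -0.46). Clec4d was the exception in the family, at 2848 and 992 in Ly6Clow cells (2.85-fold lower). Among 21 Toll-like receptor genes 6 were called higher and 0 lower (median 0.38). Besides Tlr12 these included Tlr9, a sensor of DNA in endosomes (341 and 2110), and Unc93b1, which carries endosomal receptors to their place (log2 ratio 1.39).

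Genes tied to monocytes split. Of 20 genes 8 were called higher and 6 lower (median log2 ratio -0.17). Itgal, the integrin chain of LFA-1, stood at 351 normalised counts at day 2 and 2757 at day 4 in Ly6Clow cells, 2555 and 3116 in Ly6Chigh cells, and 11784 in neutrophils. Ly6Clow cells at day 2 were the low group, and at day 4 they stood near both Ly6Chigh groups. Emr4 (8.37 and 331), Ms4a4c (275 and 1550) and the chemokine receptor gene Ccr2 (1356 and 2895) were higher too. Treml4 (log2 ratio 2.14) and Ace (1.83), both known from patrolling monocytes, were also called higher. The lower members were Fn1, Hp, Chi3l3, S100a4 (-2.13), Cd177 (-2.09) and F10 (-1.38). The chemokine receptor gene Cx3cr1 was at 1101 and 4688, and Ccr1 had a log2 ratio of -1.45.

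Genes for iron recycling, lipid export and uptake of apoptotic cells did not move as blocks. Slc40a1, which encodes the iron exporter ferroportin, stood at 47.9 normalised counts at day 2 and 880 at day 4 (15.4-fold), against 27.9 and 111 in Ly6Chigh cells and 3420 in neutrophils. Spic, a transcription factor of iron-recycling macrophages, was at 16.1 and 261, and Cp (ceruloplasmin), which oxidises exported iron, at 8.34 and 236. Hmox1, which degrades heme, was lower, at 19493 and 8969 (2.17-fold), and Tfrc, the receptor that takes up transferrin iron, at 1591 and 723 (2.18-fold lower). Of 24 iron and heme genes 5 were called higher and 3 lower (median log2 ratio -0.04), with the exporter and the uptake receptor on opposite sides.

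On the lipid side 6 of 28 cholesterol efflux, PPAR and LXR target genes were called higher and 4 lower (median log2 ratio 0.19). Pltp, a phospholipid transfer protein, was at 2541 normalised counts at day 2 and 24918 at day 4. Apoe, the apolipoprotein of cholesterol export, was at 186732 and 454978, and the exporter gene Abcg1 had a log2 ratio of 1.41. Lower were Cd36, a receptor for fatty acids and oxidised lipoprotein (18830 and 5183, 3.63-fold), the fatty acid-binding protein genes Fabp4 (1260 and 319) and Fabp5 (-1.31), and Plin2, which coats lipid droplets (-1.20). The named export genes were thus higher, and the named uptake and storage genes lower. Among 20 receptors and bridging ligands for apoptotic cells 4 were called higher and 3 lower (median 0.11), led by Axl, a receptor tyrosine kinase, at 519 and 7483 (14.2-fold). Axl was higher at day 4 in Ly6Chigh cells too (1468 and 10410). Lysosomal genes were nearly level, with 1 of 34 called higher and 0 lower (median -0.08), and cholesterol synthesis genes had 0 of 24 higher and 2 lower (-0.12).

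Cytokine and chemokine genes differed member by member. Il1b was at 886 normalised counts at day 2 and 3285 at day 4 in Ly6Clow cells, 10235 and 11472 in Ly6Chigh cells, and 284770 in neutrophils. Il18bp, which binds and blocks interleukin-18, was at 202 and 2349 (11.1-fold), and Il10, an anti-inflammatory cytokine gene, at 135 and 293. Of 25 NF-kB target and feedback genes 8 were called higher and 0 lower (median log2 ratio 0.73), among them Cd83 (2318 and 8492). Tnf was level (-0.12), and Il6 stayed below the level minimum (2.15 and 5.36). Of the chemokines, Ccl5 (6.48 and 189), Ccl8 (383 and 1782) and Cxcl16 (1910 and 7586) were higher. Ccl6 (log2 ratio -1.57), Ccl9 (-1.05), Cxcl1 (2.09-fold lower) and Pf4 (11871 and 4848) were lower. The monocyte attractants Ccl2 (-0.83) and Ccl7 (-0.99) were under 2-fold.

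Growth factors that act on muscle and stroma included 7 of 21 called higher and 1 lower (median log2 ratio 0.34). Igf1, which promotes growth of new fibres, was at 1785 normalised counts at day 2 and 2892 at day 4 (1.62-fold, not called), against 177 and 860 in Ly6Chigh cells. Pdgfb, a growth factor for fibroblasts and pericytes, was at 94.4 and 547, Gdf15 at 1565 and 4318 (2.75-fold), and Hbegf, a ligand of the EGF receptor, at 71.8 and 208. The transforming growth factor gene Tgfb1 was at 4150 and 5697 (1.37-fold), and Vegfa at 3459 and 1975 (1.75-fold lower). Igf2 was listed at 0 at day 2 and stood at 93.1 at day 4.

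Igf2 and H19 are imprinted neighbours, and a list of imprinted growth genes, made after their values were seen, had 7 of 14 members in the table at the level minimum. Of these 6 were called higher and 1 lower, but the 6 passed the minimum only through day 4, so the count supports nothing beside the 8.08% of all compared genes. Grb10 was at 4.48 normalised counts at day 2 and 116 at day 4, Cdkn1c at 13.5 and 122 (5.61-fold) and Mest at 11.8 and 91.2 (4.63-fold). Peg3 was listed at 0 at day 2 and stood at 63.9 at day 4. Igf2r, a receptor that removes IGF2, was the lower member (-1.10). The same genes were higher at day 4 in Ly6Chigh cells, where H19 was at 7.97 and 1388. Fibroblast, fibre and myoblast genes were at low levels at day 2 and higher at day 4 in both subsets, as in Col1a1 (26.0 and 535) and Postn (2.63 and 223) in Ly6Clow cells. Among fibre genes Mylpf was at 4.57 and 281 and Acta1 at 290 and 712, and Myog, a factor of differentiating myoblasts, was listed at 0 and then at 56.1. H19 had nearly equal day 4 levels in the 2 subsets, 1450 and 1388, and Col1a1 stood at 535 in Ly6Clow and 7374 in Ly6Chigh cells. At day 4 fibre genes summed to 2923 in Ly6Clow and 1804 in Ly6Chigh cells, and muscle stem cell and myoblast genes to 908 and 508. In the 6 BMDM libraries H19 had log2 levels of 7.85 to 9.36 and Igf2 of 7.0 to 7.83, and these cultures also held Col1a1 at 13.95 to 14.53. The part of RNA from fibroblasts or muscle in the imprinted genes was not tested.

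Among enzymes of lipid mediator synthesis, Ptgs1, the constitutive cyclooxygenase, was at 82.8 normalised counts at day 2 and 428 at day 4 (4.72-fold), while Ptgs2, the inducible enzyme, was at 1918 and 1531 and not called. Hpgd, which inactivates prostaglandins and resolvins, stood at 53.0 and 937 (15.0-fold), 68.9 and 604 in Ly6Chigh cells, and 4.38 in neutrophils. Alox5, the 5-lipoxygenase of leukotriene and resolvin synthesis, was at 186 and 150 (log2 ratio -0.30), and Alox15 stayed below the level minimum (28.4 and 18.7). Of 12 prostaglandin and thromboxane genes 2 were called higher and 0 lower, and of 10 lipoxygenase pathway genes 3 were called higher and 0 lower, beside 8.08% of all compared genes called higher. Ephx1, an epoxide hydrolase (45.8 and 698), and Lpcat2, a platelet-activating factor synthase (503 and 3539), were among the higher genes.

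Receptors for lipid mediators had 5 of 14 members called higher and 1 lower (median log2 ratio 0.61). Gpr18, reported as a receptor for RvD2, was at 1.45 normalised counts at day 2 and 30.8 at day 4, below the level minimum, and at 12.1 and 139 in Ly6Chigh cells. Ltb4r1, the leukotriene B4 receptor, was lower, at 93.7 and 22.0, and the prostaglandin E2 receptor gene Ptger4 had a log2 ratio of 1.32. A list of purinergic and other G protein-coupled receptors, put together after seeing the values, had 10 of 14 members called higher and 1 lower. The share called higher of all compared genes was 8.08%. P2ry14, a receptor for UDP-glucose, was at 30.6 and 232. Members such as P2ry14 reached the level minimum only through day 4 and were nearly sure to be called, so the count supports nothing.

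Repair-associated genes split between the days. Of 20 genes of arginine metabolism and alternative activation 6 were called higher and 4 lower (median log2 ratio 0.40). Besides Arg1 and Chi3l3 the lower ones were Chi3l4 (-2.14) and Srm, which makes spermidine (499 and 162). Retnla, a secreted protein of alternative activation, was at 29.7 normalised counts at day 2 and 174 at day 4, and Irf4 had a log2 ratio of 1.65. Mrc1, the mannose receptor, was level at 8695 and 9991 (1.15-fold), and Nos2 stayed below the level minimum at 1.42 and 4.59.

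Of 16 provisional matrix genes 5 were called lower and 0 higher (median log2 ratio -0.57), against 3.24% of all genes called lower, and 3 had a ratio above 0. Spp1, which encodes osteopontin, was at 183020 normalised counts at day 2 and 43292 at day 4, 4.23-fold lower. Thbs1, the matrix glycoprotein thrombospondin-1, stood at 80552 and 29776 (2.70-fold lower) in Ly6Clow cells, 253762 and 63718 in Ly6Chigh cells, and 552774 in neutrophils. The coagulation factor genes F7 (2090 and 477, 4.31-fold lower) and F10 were the other members besides Fn1. Of 22 matrix protease and inhibitor genes 5 were called higher and 4 lower. Mmp9 (291 and 83.9) and the inhibitor gene Timp1 (215 and 57.6) were lower, and Mmp12, the macrophage elastase, was 2.06-fold higher. Mmp2 was higher (12.5 and 169), and it is also a product of fibroblasts, whose markers were higher at day 4.

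Of 15 phagocyte oxidase and granule genes 7 were called lower and 2 higher. Their median log2 ratio was near level (-0.03), with 5 above 0 and 10 below. S100a8, the calgranulin of neutrophils and monocytes, stood at 135 normalised counts at day 2 and 21.1 at day 4 in Ly6Clow cells, and at 101337 in neutrophils. S100a4 (6669 and 1514) and S100a6 (log2 ratio -1.75) followed, and Cybb, the membrane subunit of the oxidase, was higher (5620 and 19000). Of 6 neutrophil markers at the level minimum 5 were called lower (median -1.52), against 3.24% of all compared genes. Members such as S100a8 reached the minimum only through day 2 and were then nearly sure to be called. Of all 15 markers 8 had a ratio below 0 and 3 above, and their sum was 2963 at day 2 and 2728 at day 4. The sum includes Csf3r, also a monocyte gene, which was at 1317 and 2367. For Mmp8 the log2 means were 10.05 at day 2 and 7.62 at day 4 in Ly6Clow cells and 10.60 in neutrophils. In the same order they were 7.61, 4.56 and 13.65 for Hp and 7.66, 5.04 and 13.84 for Slpi. The part of neutrophil RNA in the lower S100, Slpi, Hp and Mmp8 values was not tested.

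**Figure D4:**
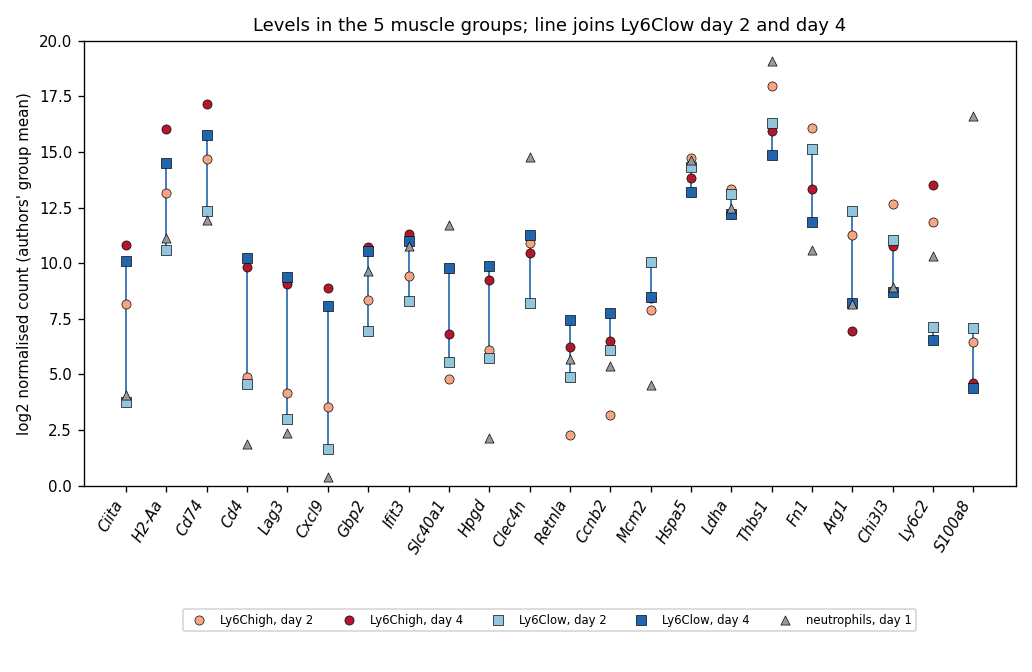
Authors' group means of log2 normalised counts (vertical) of 22 genes in the 5 muscle groups, with a line joining the Ly6Clow day 2 and day 4 squares; circles are Ly6Chigh cells and triangles neutrophils, and no error was available. The line runs upward with time for Ciita, Cd4 and Cxcl9 and downward for Arg1 and Fn1, and neutrophils are far above the macrophage groups for S100a8.

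Of 27 glycolysis and hypoxia genes 5 were called lower and 0 higher (median log2 ratio -0.56), against 3.24% of all genes called lower. The other 22 were under 2-fold, though 26 of the 27 had a ratio below 0. Pkm, the pyruvate kinase gene, was at 24345 normalised counts at day 2 and 8570 at day 4, Eno1 at 5237 and 1984, and Gapdh at 1383 and 643. Ldha, which makes lactate, was at 8825 and 4752 (-0.89), and the glucose transporter gene Slc2a1 at 1684 and 862 (-0.96). Many glycolytic genes, Gapdh and Eno1 among them, have processed pseudogenes that can take reads. Oxidative phosphorylation genes had 1 of 30 called lower (median -0.44) and ribosomal protein genes 0 of 30 called (-0.04).

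Of 28 ribosome biogenesis and MYC target genes 10 were called lower and 0 higher (median log2 ratio -0.85), and all 28 had a ratio below 0. Nop2, a methyltransferase of ribosomal RNA, was at 496 normalised counts at day 2 and 234 at day 4, Cad, which starts pyrimidine synthesis, at 551 and 187, and Myc itself differed by -0.34. Of 25 ATF4 and unfolded protein response genes 9 were called lower and 0 higher (median -0.48), and 7 had a ratio above 0, among them Herpud1 (0.97) and Ppp1r15a (0.74). Hspa5, the chaperone BiP of the endoplasmic reticulum, was at 20674 and 9573, and its partner Sdf2l1 at 2153 and 684. A list of tubulins and the chaperonin that folds them, chosen after the values were seen, had 8 of 18 called lower and 0 higher (median -0.95), with Tuba1b at 3928 and 1717. Tubulin genes are close copies whose reads could be split.

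The promoters of Nop2 and Hspa5 are printed as examples from these lists, in the same frame as above. Capitals mark the E-box (CACGTG), the sequence that MYC and related factors bind, in Nop2, and the CCAAT box on either strand in Hspa5.
Nop2, chr6:125131633-125131932, plus strand: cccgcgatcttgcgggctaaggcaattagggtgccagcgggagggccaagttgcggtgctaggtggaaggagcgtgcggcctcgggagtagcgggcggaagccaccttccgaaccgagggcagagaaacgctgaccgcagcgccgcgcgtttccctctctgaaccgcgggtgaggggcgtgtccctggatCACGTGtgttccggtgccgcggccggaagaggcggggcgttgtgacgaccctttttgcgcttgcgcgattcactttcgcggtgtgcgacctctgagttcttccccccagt
Hspa5, chr2:34771840-34772139, plus strand: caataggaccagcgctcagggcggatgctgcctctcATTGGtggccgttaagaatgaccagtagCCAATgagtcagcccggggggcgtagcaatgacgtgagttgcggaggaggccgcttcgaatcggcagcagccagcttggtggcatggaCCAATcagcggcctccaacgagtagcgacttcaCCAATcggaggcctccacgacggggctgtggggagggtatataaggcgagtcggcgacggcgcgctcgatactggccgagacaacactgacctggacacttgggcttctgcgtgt
Of 282 windows of protein-coding genes called lower, 42 (14.9%) held an E-box, against 10.5% of 10097 windows of all compared protein-coding genes and 7.15% of all windows. Windows were found for 228 of 279 such genes (81.7%), and a gene can have more than 1 start. The E-box, chosen after the values were seen, was not alone in this. In windows of genes called lower, TGACGT (cAMP response element) also reached 14.9%, against 12.1% for all compared protein-coding genes. The AP-1 site (TGANTCA) was at 8.51% against 5.02%. TACGTG (hypoxia response element core) was at 5.67% against 3.90%. Of the other motifs some were more frequent and some rarer in genes called lower. Among the rarer was TCACGTGA, which contains the E-box (0.709% against 2.02%). These shares were not tested. A CCAAT box, of which Hspa5 holds 4, was found in 17 of 25 windows of the ATF4 and unfolded protein response list (68.0%), against 37.3% of windows of compared protein-coding genes. The ribosome biogenesis list had windows for 21 of 28 genes, too few for a share.

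Cell cycle genes parted by phase. Of 30 genes of DNA replication and entry into S phase 6 were called lower and 0 higher (median log2 ratio -0.64). Mcm2, a subunit of the replicative helicase, stood at 1070 normalised counts at day 2 and 359 at day 4 in Ly6Clow cells, 240 and 349 in Ly6Chigh cells, and 22.9 in neutrophils. Mcm5 was at 1069 and 445, and Cdc45, which activates the helicase, had a log2 ratio of -1.28. In contrast, 6 of 27 genes of mitosis and the spindle were called higher and 0 lower (median 0.75), and 26 had a ratio above 0. Ccnb2, a cyclin that drives entry into mitosis, was at 69.4 and 221, Ube2c, which acts at mitotic exit, had a log2 ratio of 1.43, and Cenpf, a kinetochore protein, was at 33.0 and 106. The proliferation marker Mki67 was at 605 and 1013 (0.73, not called). In Ly6Chigh cells the medians of both lists were positive, 0.80 for replication and 1.88 for mitosis.

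The promoters of Ccnb2 and Cenpf hold the cell cycle genes homology region (TTTGAA, in capitals), a sequence through which many mitotic genes are repressed in resting cells. They are printed because both genes also differed with RvD2 in cultured macrophages.
Ccnb2, chr9:70421505-70421804, minus strand: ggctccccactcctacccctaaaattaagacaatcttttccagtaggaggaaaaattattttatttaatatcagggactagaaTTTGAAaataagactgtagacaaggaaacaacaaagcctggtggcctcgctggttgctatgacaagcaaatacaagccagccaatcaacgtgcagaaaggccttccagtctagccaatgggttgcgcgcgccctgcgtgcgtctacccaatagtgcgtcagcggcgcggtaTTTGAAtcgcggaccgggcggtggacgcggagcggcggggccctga
Cenpf, chr1:189688037-189688336, minus strand: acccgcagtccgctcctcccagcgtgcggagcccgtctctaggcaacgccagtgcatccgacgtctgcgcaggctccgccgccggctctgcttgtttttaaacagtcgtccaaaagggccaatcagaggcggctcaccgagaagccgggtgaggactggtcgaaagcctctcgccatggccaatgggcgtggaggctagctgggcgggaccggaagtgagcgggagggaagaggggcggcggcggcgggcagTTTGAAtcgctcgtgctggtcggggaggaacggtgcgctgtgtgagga
Of 25 windows of the mitosis list 19 (76.0%) held this sequence on either strand and 20 (80.0%) held a CCAAT box. The shares over windows of all compared protein-coding genes were 11.9% and 37.3%. In Cenpf the match begins at base 2 after the start, and Ccnb2 has 2 matches.

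Among transcription factor genes of macrophages 8 of 33 were called higher and 0 lower (median log2 ratio 0.17), with Spic, Id3 (1.77) and Irf4 the leading ones. Sfpi1 (0.31), Cebpa (-0.13) and Pparg (-0.11) were near level. The gene classes were unevenly spread over the calls. Pseudogenes made up 11.7% of compared genes, 3.64% of those called higher and 22.4% of those called lower (84 of 375). Protein-coding genes made up 85.3%, 92.6% and 74.4%.

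The same 2 days were compared in Ly6Chigh cells, which were sorted in the same way and may come from the same animals, as the labels do not say. There 1123 of 11618 genes (9.67%) were called higher and 435 (3.74%) lower. Over the 11129 genes compared in both subsets the log2 ratios had a Pearson correlation of 0.800 and a Spearman correlation of 0.752 across genes, which are not independent and share the days, possibly the animals, the authors' scaling and the gene models. Of 866 genes called higher in Ly6Clow cells 546 were called higher in Ly6Chigh cells too, 63.0% of the Ly6Clow calls and 63.6% of the 859 Ly6Chigh calls, where 7.72% of all shared genes were called. Of 356 called lower, 203 were lower in both, 57.0% of these and 51.0% of the 398 Ly6Chigh calls, against 3.58%. The sign was the same for 97.8% and 95.2% of them. Arg1 had nearly equal ratios in the subsets (-4.09 and -4.20), as did H19 (6.62 and 6.28) and Il18bp (3.48 and 3.47).

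Interferon and class II genes differed more in Ly6Clow than in Ly6Chigh cells, and mitosis and fibroblast genes more in Ly6Chigh cells, as descriptions without a test. Replication genes had medians of opposite sign, -0.64 and 0.80. Each median is over the members at the level minimum in that subset. These were 9 and 11 class II, 27 and 20 mitosis and 11 and 17 fibroblast genes in Ly6Clow and Ly6Chigh cells. The median log2 ratio of class II genes was 3.44 in Ly6Clow and 2.39 in Ly6Chigh cells, of the gamma list 2.68 and 1.69, and of the type I list 1.66 and 0.84. For glycolysis genes it was -0.56 and -1.20, for mitosis genes 0.75 and 1.88, and for fibroblast genes 3.29 and 5.39. By single genes the differences toward Ly6Clow cells were led by Clec4n (3.46), Ciita (2.92), AL772299.1 (2.90), Emr4 (2.82), Ocstamp (2.77) and Itgal (2.65). Toward Ly6Chigh cells they were led by Col5a2 (-3.31), Col6a3 (-3.24), Postn (-3.18), AC165433.1 (-3.09), Col5a1 (-3.05) and Col6a1 (-2.98), of which 5 are matrix genes of fibroblasts. Ciita was at 13.6 normalised counts at day 2 in Ly6Clow and 287 in Ly6Chigh cells, and at 1091 and 1826 at day 4. The subset with the lower starting level thus had the larger ratio for Ciita, Clec4n, Emr4 and Itgal. The 5 matrix genes went the other way, as Ly6Chigh cells started higher and also had the larger ratio. Postn, for example, had a day 2 log2 mean of 2.21 in the Ly6Chigh subset against 1.39 in Ly6Clow.

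**Figure D5:**
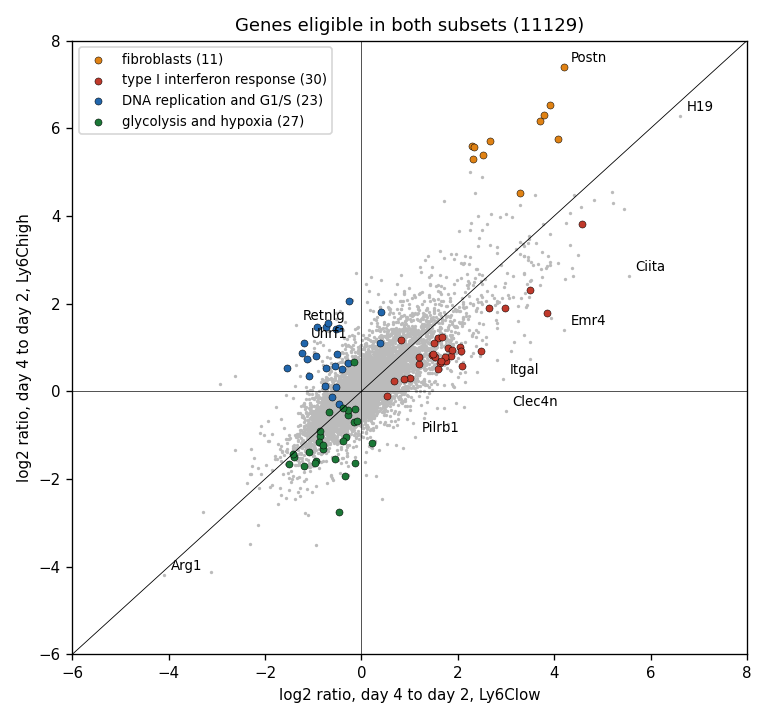
Log2 ratio of day 4 to day 2 in Ly6Clow (horizontal) and Ly6Chigh (vertical) macrophages for the 11129 genes compared in both, with 4 gene lists coloured and the line of equal ratios. Fibroblast genes lie above the line, most type I interferon genes below it, and replication genes lie mostly to the left of 0 and above 0.

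The BMDM expressed macrophage genes, Csf1r at log2 levels of 14.1 to 14.4 and Emr1 at 12.8 to 13.2, but fibroblast genes took a similar share of their counts. The 10 macrophage identity genes summed to 0.941% to 1.20% of a library and the 18 fibroblast genes to 0.726% to 1.09%, the latter at 0.960%, 0.802% and 0.838% untreated and 1.09%, 0.726% and 0.839% with RvD2. Their part in the RvD2 values was not tested.

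RvD2 changed few genes in BMDM, and they included members of both sides of the day 4 difference. By limma's moderated test on the deposited log2 values, 121 of 15239 genes rose (0.794%) and 162 fell (1.06%) at an adjusted p under 0.05. At an unadjusted p under 0.05 the counts were 1089 and 1281. Of 857 genes called higher at day 4 that were tested, 19 rose (2.22%) and 13 fell (1.52%). Of 370 called lower, 3 rose (0.811%) and 9 fell (2.43%). The median log2 change was 0.11 for the genes called higher, -0.01 for those called lower and -0.00 for all tested genes. The counts depend on single libraries: the 121 and 162 genes became 32 and 47 without RvD2 replicate 3, 39 and 51 without RvD2 replicate 2, 50 and 56 without untreated replicate 2, 54 and 69 without untreated replicate 1, and 70 and 70 without untreated replicate 3. The 19 genes that were higher at day 4 and rose became 0 without RvD2 replicate 3, 3 and 5 without untreated replicates 1 and 2, and 4 without RvD2 replicate 2. The 9 that were lower and fell became 2 without RvD2 replicate 3 or untreated replicate 2, and 3 without RvD2 replicate 2. The 3 that were lower and rose became 0 without RvD2 replicate 3 or untreated replicate 2 or 3, and 1 without RvD2 replicate 2. The 9 became 5 without RvD2 replicate 1 or untreated replicate 1, and 4 without untreated replicate 3.

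Among genes higher at day 4, the clearest changes with RvD2 were falls of mitotic genes. Log2 levels of Ccnb2 were 8.31, 8.25 and 8.20 in untreated BMDM and 7.27, 7.34 and 7.21 with RvD2. The groups did not overlap, and Ccnb2 fell by 0.98 on the log2 scale (SE 0.0796, limma adjusted p = 0.00279, n = 3 per group). Cenpf fell by 0.85 (limma adjusted p = 0.00339) and Cenpe, a kinetochore motor, by 0.82 (limma adjusted p = 0.00402), and for these 3 genes the adjusted p stayed under 0.05 in every alternative fit, at most 0.0408. Slc40a1, the iron exporter gene that was 15.4-fold higher at day 4, had levels of 12.4, 12.4 and 12.5 untreated and 11.6, 11.9 and 11.7 with RvD2. It fell by 0.69 (limma adjusted p = 0.00813), and the adjusted p was 0.0681 without a trend in the variance, with a range of 0.000778 to 0.0681.

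Higher at day 4 and raised by RvD2 were Cd83, a surface protein of activated antigen-presenting cells, Lbh, Hbegf and Pck2. Cd83 levels were 7.36, 7.46 and 7.83 untreated and 8.43, 8.55 and 8.81 with RvD2, without overlap, a rise of 1.05 (SE 0.140, limma adjusted p = 0.0102). That p lay between 0.000206 and 0.0681 over the alternative fits and was 0.0537 without RvD2 replicate 3. Lbh rose by 0.54, Hbegf by 0.49 and Pck2, a mitochondrial enzyme of gluconeogenesis, by 0.56, and their limma adjusted p of 0.0117, 0.0138 and 0.0212 went above 0.05 when RvD2 replicate 2 or 3 was left out (0.0539 and 0.0679 for Lbh, 0.0677 and 0.0792 for Hbegf, 0.0644 and 0.0857 for Pck2). The limma adjusted p was also above 0.05 without a variance trend (0.0791, 0.0908 and 0.107). For Lbh it was 0.0529 without untreated replicate 2, for Hbegf 0.0512 and for Pck2 0.0660 without untreated replicate 1, and for Pck2 0.0685 without a filter on level.

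Among genes lower at day 4, Thbs1 rose by 0.52 with RvD2 (limma adjusted p = 0.0162), Mthfd2, an enzyme of mitochondrial folate metabolism, by 0.47 (limma adjusted p = 0.0210) and Agpat9 by 0.99 (limma adjusted p = 0.0282). All 3 lost the call without RvD2 replicate 3, with adjusted p of 0.0872, 0.0679 and 0.122, and under 4 or more other settings, reaching 0.128 for Thbs1 and 0.108 for Mthfd2. Lrp8, a receptor for apolipoprotein E and reelin, fell by 0.99 (limma adjusted p = 0.00279) and Megf9 by 0.85 (limma adjusted p = 0.00339), and both stayed under 0.05 in every alternative fit. The tubulin gene Tuba4a fell by 0.55 (limma adjusted p = 0.0136) and the gene listed as TUBB5 by 0.40 (limma adjusted p = 0.0117), which became 0.0699 and 0.0622 without RvD2 replicate 3, 0.0539 and 0.0529 without untreated replicate 2, and 0.0776 and 0.0681 without a variance trend. TUBB5 also lost the call without RvD2 replicate 2 (0.0615). Leading genes of the day 4 difference did not pass the test, with log2 differences of 0.52 for Arg1 (SE 0.187, limma adjusted p = 0.218), -0.18 for Fn1 (SE 0.0865, limma adjusted p = 0.379) and 0.35 for H19 (SE 0.307, limma adjusted p = 0.660).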

How the data were processed

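RNA was sequenced from sorted muscle cells and BMDM. Reads were aligned with TopHat2 2.0.7 to mm10 and normalised with DESeq, per the submitters' processing notes, while the sources used here name no gene annotation. The library kit named in the labels does not mark strand. The authors deposited log2 normalised counts, with values under 1 count at 0. The muscle table holds the authors' group means of log2 values, so no test was possible there, and the BMDM table holds 6 libraries. Tables were joined by gene identifier, and 36308 of 38087 identifiers (95.3%) were in GENCODE M21, which gave coordinates on mm10. Date entries in 2 cells (Zcchc11 in Ly6Chigh and Gpr34 in Ly6Clow cells at day 4) were treated as missing, and 0 columns belonged to no sample.

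Muscle ratios used a pseudocount of 10, a minimum of 50 counts in the higher group and a 2-fold limit. BMDM genes with a mean of at least 10 counts were tested with limma 3.58.1 in R 4.3.3, with a trend in the variance and Benjamini-Hochberg adjustment at 0.05. Other steps used Python 3.11.15, pandas 2.3.3, numpy 2.4.6, scipy 1.17.1 and matplotlib 3.10.9, and the statistics were tested on simulated data. BMDM depths were equivalent to 9.05 to 14.3 M (mega) reads. Low BMDM values were whole multiples of 1 read, within 0.02 reads, for only 35.2% to 44.4% of genes, so reads were not recovered. Counting errors cover counting only.

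The members and the 43 gene lists and 11 marker lists were chosen with earlier results of these data known. Another 4 lists, the E-box and some alternatives were added after the values were seen. Named genes were the 12 with the largest ratio in each direction, up to 4 members of each list with the largest ratios and up to 2 defining members, the 6 with the largest difference between subsets each way, and the called genes with the smallest adjusted p in BMDM. Alox5, Alox15, Ptgs1, Ptgs2, Gpr18 and the sort antigens were always named. Other genes were picked for their role after their values were seen. Samples of Ly6Chigh cells at day 1 and of blood monocytes were not analysed here.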

Additional observations from a re-analysis of the deposited data

Results flagged for a closer look

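In 3 genes the 2 subsets were called in opposite directions between day 2 and day 4, and the difference between subsets was not tested. Pilrb1, an activating receptor gene of myeloid cells, had a log2 ratio of 1.12 in Ly6Clow cells (67.9 normalised counts at day 2 and 159 at day 4) and -1.05 in Ly6Chigh cells (447 and 210). Retnlg, a granulocyte gene at 2275 counts in neutrophils, had -1.37 in Ly6Clow cells (94.2 and 30.4) and 1.51 in Ly6Chigh cells (22.5 and 82.6). Uhrf1, which maintains DNA methylation during replication, had -1.19 in Ly6Clow cells (365 and 154) and 1.09 in Ly6Chigh cells (50.8 and 120).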

How the results depend on the processing

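No paired analysis was possible because the muscle values are group means. In BMDM the labels do not tie the replicate numbers to a shared culture, so the main fit did not take them as pairs. Same-numbered libraries had correlations of 0.29, 0.02 and 0.05 between their deviations, which do not settle whether they were paired. With the replicate number as a block, 492 genes rose and 574 fell with RvD2, with 92 and 32 of the genes higher at day 4 and 10 and 24 of those lower.

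In muscle, the 934 genes called higher became 597 at a minimum of 200 counts and 390 at 3-fold, and the 375 called lower became 209 with a pseudocount of 50 and 51 at 3-fold. The share of called genes that were higher went from 71.4% to 88.4% at 3-fold. Genes lower in both subsets went from 203 to 117 with a pseudocount of 50, and opposite calls from 3 to 5 with a pseudocount of 1 and to 0 with 50, alternatives chosen after seeing the data. The share of E-box windows among genes called lower was 14.9%. At 3-fold it was 20.5%, from windows for 35 of 46 genes, under the 80% needed, so this check is void. Leaving out pseudogenes, or fibroblast and muscle marker genes, and rescaling kept the counts of called genes within 1.5 times.

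Genes that rose with RvD2 went from 121 to 53 without a filter on level, 22 without a variance trend and 32 to 140 when 1 library was left out. Those that fell went from 162 to 84, 27 and 47 to 150. Higher at day 4 and raised were 19, then 6, 2 and 0 to 24. Higher and lowered were 13, then 5 without the trend and 9 to 15. Lower at day 4 and raised were 3, then 1, 1 and 0 to 3. Lower and lowered were 9, then 4, 2 and 2 to 5. The cause of these differences was not tested. Across the alternatives 754 of 840 single-gene muscle values and 362 of 373 list medians stayed near their value. Many of these could not move, so the counts are no measure of stability. Rescaling shifted ratios little, as summed counts were 12.6 and 12.8 M and the median log2 ratio was -0.01. The 3-fold limit leaves list medians unchanged. Of the single-gene RvD2 calls 110 of 150 were kept. No named RvD2 change reversed direction, nor did a muscle value of at least 2-fold. Smaller muscle values were not checked for reversal.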
